A study of Mus musculus with 2 samples.

Results

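The Dlx homeobox genes described here are Dlx1 and Dlx2, which lie as a pair on mouse chromosome 2, and Dlx5 and Dlx6, which lie as a pair on chromosome 6. They were taken by name, as 4 of 21728 protein-coding genes counted, with no threshold on their measured values. In the mm10 build with GENCODE M21 models, Dlx1 lies at chr2:71528113-71533981 on the plus strand and Dlx2 at chr2:71543408-71546754 on the minus strand. Dlx6 lies at chr6:6863334-6868568 on the plus strand and Dlx5 at chr6:6877805-6882085 on the minus strand. Dlx genes encode transcription factors with a DNA-binding homeodomain. Each pair is transcribed from opposite strands towards a shared intergenic stretch, where enhancers that serve both genes are known to lie. In the embryonic forebrain the Dlx genes act below Gsx2 to specify GABAergic neurons of the ganglionic eminences, and some subtypes of adult GABAergic neurons go on expressing them.

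Open chromatin was profiled by scATAC-seq, in which the Tn5 transposase cuts accessible DNA and the fragments, after removal of duplicates, are assigned to nuclei by barcode. Both groups were wild-type (WT) young adult C57BL/6J male mice sampled at 48 h, with no allele or transgene named: a sham group, in which the filament was inserted without lasting occlusion, and a stroke group, in which the middle cerebral artery was occluded for 1 h and then reperfused. The sham library came from 4 pooled whole brains and the stroke library from the ipsilateral hemispheres of 4 pooled brains, with cerebellum and olfactory bulbs left out. With 1 library per condition there was no replicate, no test was made between conditions, and the condition, the library and the tissue taken cannot be told apart. Of the called barcodes, 6817 sham (97.7%) and 5054 stroke (57.8%) had over 20% of fragments in peaks and were kept, with medians of 10356 and 9898 fragments, and 42 barcode sequences occurred in both libraries. No doublet caller was run. All intervals are exact 95% intervals, Poisson for sums and binomial for shares, and cover counting error only. Intervals on Tn5 cut sites are narrower than counting error, as both ends of a fragment were counted.

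Nuclei were clustered on 5 kb tiles, with tiles within 100 kb of the Dlx pairs and of the gate genes left out, so that the Dlx loci did not shape the 21 clusters. A cluster was gated GABAergic where the summed level of Gad1 and Gad2, which make GABA, and Slc32a1, which loads it into vesicles, was at least 1.5 times that in the remaining nuclei and each gene was higher. The gate took 6 clusters with 2430 sham nuclei (35.6%) and 1444 stroke nuclei (28.6%). Of these, 1 was named SPN-like after markers of the spiny projection neurons of the striatum (8 of 8 markers detected), 1 Lhx6-like, 1 Prox1 Adarb2-like and 2 Zic Magel2-like (6 of 6 markers each). The remaining one, cluster 15, had Lgr5, Vipr2, Gad1, Slc32a1 and Th among its 10 leading genes and had no subtype name. Of the nuclei outside the gate, 741 sham and 768 stroke nuclei in 3 clusters had no class name. Of these, cluster 16, with 165 and 149 nuclei, had 8 of 8 astrocyte markers but was shallow (median 2351.5 fragments) with none of them among its 10 leading genes and stayed unnamed, so the astrocyte-like class leaves it out. The level of a gene is the number of fragments over its body and the 2 kb before its start, counted per 1000000 fragments of the nuclei compared (CPM).

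All 4 Dlx genes were more accessible in GABAergic-gated nuclei than in all other nuclei. Dlx1 had 20.3 CPM in the gated sham nuclei (18.6 to 22.1, from 533 fragments) and 19.6 in the gated stroke nuclei (17.3 to 22.1, from 261), against 4.81 and 7.22 in the other nuclei. Dlx2 had 13.5 (12.1 to 15) and 15.2 (13.2 to 17.4), against 4.24 and 5.75. For both genes the gated intervals of either library lay above those of the other nuclei of that library.

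With this gate the chromosome 6 pair showed the wider gap. Dlx5 had 21.2 CPM in gated sham nuclei (19.4 to 23.0) and 19.8 in gated stroke nuclei (17.4 to 22.3), against 3.60 and 4.92 in the other nuclei. Dlx6 had 23.4 (21.6 to 25.3) and 23.1 (20.6 to 25.9), against 3.99 and 4.18. Pooled over libraries, the gated nuclei were higher 3.39-fold for Dlx1 (3.03 to 3.80), 2.85-fold for Dlx2 (2.51 to 3.24), 4.92-fold for Dlx5 (4.35 to 5.59) and 5.72-fold for Dlx6 (5.05 to 6.48). Each of the 4 was thus past 2-fold, as were 0.849% of the 20968 genes with at least 20 fragments, a background that includes the 3 gate genes. A stricter gate fold of 2 left the Zic Magel2-like and Prox1 Adarb2-like clusters outside. It gave 2.02 for Dlx1, 1.71 for Dlx2, 3.42 for Dlx5 and 3.93 for Dlx6. A gate on each nucleus by the same 3 genes, which took 616 nuclei, gave 2.62, 2.13, 2.45 and 2.83 in that order. Dlx1 was then above Dlx5, so the wider gap of the chromosome 6 pair depended on the gate.

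Scaled to length, the chromosome 6 genes were somewhat more accessible than the chromosome 2 genes in the gated nuclei as a whole, but not in the gated nuclei without the SPN-like cluster. Levels per kb were 2.55 CPM for Dlx1 (2.37 to 2.73), 2.63 for Dlx2 (2.41 to 2.85), 3.29 for Dlx5 (3.07 to 3.53) and 3.22 for Dlx6 (3.02 to 3.43). Over the whole spans that join the windows of each pair, Dlx5-Dlx6 was at 1.30 of Dlx1-Dlx2 per kb (1.23 to 1.37), and at 0.919 without SPN-like nuclei (0.858 to 0.985). Within each pair the partners did not differ beyond their intervals, with Dlx1 at 0.970 of Dlx2 (0.870 to 1.08) and Dlx6 at 0.977 of Dlx5 (0.889 to 1.08) per kb. In glutamatergic-like nuclei all 4 lay between 0.426 and 0.540 CPM per kb. The other 2 annotated Dlx genes, Dlx3 and Dlx4 on chromosome 11, which are known from skin, tooth and placenta, showed no such pattern. Dlx3 had 4.72 CPM in gated nuclei and 4.48 in glutamatergic-like nuclei, and Dlx4 had 3.18 and 2.67, with ratios to all other nuclei of 1.14 (0.947 to 1.36) and 0.988 (0.794 to 1.22).

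**Figure D1:**
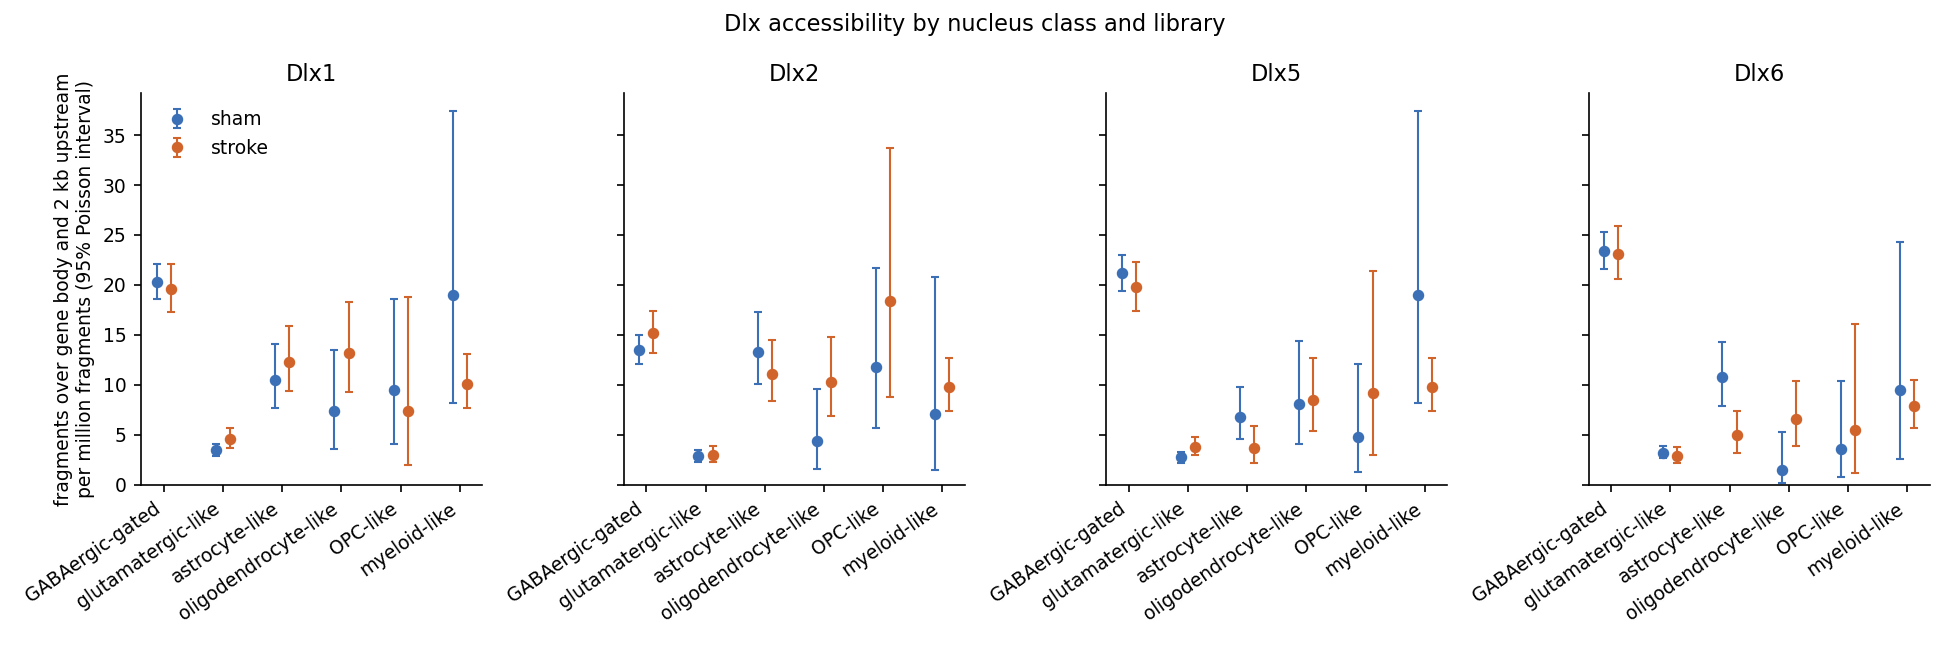
CPM over Dlx1, Dlx2, Dlx5 and Dlx6 (y axis) by class of nucleus (x axis), for sham (blue) and stroke (orange), with bars for exact 95% Poisson intervals. GABAergic-gated nuclei lie at 13.5 to 23.4 CPM and glutamatergic-like nuclei at 2.72 to 4.58.

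Outside the gate, most glial levels lay between those of glutamatergic-like and gated nuclei with both libraries pooled. At Dlx2, OPC-like nuclei had 14.4 CPM (8.78 to 22.2) against 14.0 in gated nuclei (12.9 to 15.3). The astrocyte-like interval at Dlx2 also overlapped with the gated one. The ratio to glutamatergic-like nuclei had an interval that held 1 for Dlx6 in oligodendrocyte-like nuclei (1.59, 0.945 to 2.53, with 0.460 in sham) and for Dlx5 and Dlx6 in OPC-like nuclei (2.08, 0.937 to 4.05, and 1.40, 0.506 to 3.10), and Dlx5 in astrocyte-like nuclei was at 0.971 in stroke alone (0.546 to 1.64). Astrocyte-like nuclei had 11.5 CPM at Dlx1 (9.40 to 13.9) and 12.1 at Dlx2 (9.99 to 14.6), which was 2.99-fold (2.35 to 3.80) and 4.21-fold (3.27 to 5.39) over glutamatergic-like nuclei. At Dlx5 and Dlx6 they had 5.14 CPM (3.78 to 6.84) and 7.66 (5.97 to 9.68). The Dlx5-Dlx6 to Dlx1-Dlx2 ratio over the spans was 0.508 per kb (0.421 to 0.611). By cluster it was 0.204 in cluster 19 (0.115 to 0.341), and in cluster 11 it was 0.316 in stroke (0.228 to 0.432) and 1.22 in sham (0.906 to 1.65), so that the sham nuclei of cluster 11 did not share the lower level at chromosome 6. Oligodendrocyte-like nuclei had 7.33, 4.4, 8.07 and 1.47 CPM at Dlx1, Dlx2, Dlx5 and Dlx6 in sham, from 2 to 11 fragments each, and 13.2, 10.3, 8.44 and 6.61 in stroke. Nuclei like oligodendrocyte precursors (OPC-like) had 8.62, 14.4, 6.47 and 4.31, from 6 to 20 fragments each. Myeloid-like nuclei, of which 281 of 299 came from the stroke library, had 10.8, 9.60, 10.4 and 7.94. The gate genes were also above the glutamatergic-like level in most of these classes. Gad1 was at 2.19, 1.54, 3.37 and 2.42 of that level in astrocyte-like, oligodendrocyte-like, OPC-like and myeloid-like nuclei, and Slc32a1 at 1.95 (1.52 to 2.49), 1.12 (0.696 to 1.71), 1.43 (0.676 to 2.66) and 3.09 (2.42 to 3.91). Gad2 had 7.91 CPM in glutamatergic-like, 19.5 in astrocyte-like, 21 in oligodendrocyte-like, 18.0 in OPC-like and 33.6 in myeloid-like nuclei, and the part of fragments from GABAergic nuclei in the glial Dlx signal was not tested.

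The 2 astrocyte-like clusters differed at the chromosome 6 pair. Cluster 11 held 84 sham and 339 stroke nuclei, and cluster 19 held 203 sham and 90 stroke nuclei, so that each library drew most of its astrocyte-like nuclei from another cluster. Dlx1 and Dlx2 had 12 and 13.1 CPM in cluster 11 and 10.5 and 10.2 in cluster 19, and both ratios had intervals that held 1, while over the whole span cluster 11 was at 1.43 of cluster 19 (1.12 to 1.85). Dlx5 had 7.05 CPM in cluster 11 (43 fragments) and 1.32 in cluster 19 (4 fragments), and Dlx6 had 10.7 (65) and 1.65 (5). Within cluster 11, the Dlx5-Dlx6 span had 48.5 CPM in sham (39.5 to 58.8) and 13.5 in stroke (10.2 to 17.6). The 84 sham nuclei held 2104444 fragments and the 339 stroke nuclei 3995834. The sham nuclei were thus deeper on average, and the part of depth was not tested. Of the gate genes, Gad1 had 72.7 CPM in sham and 39.0 in stroke and Slc32a1 20.4 and 6.51, while the Gad2 ratio of 0.736 had an interval that held 1 (0.526 to 1.03), and their part in the difference was not tested.

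Few single nuclei carried a Dlx fragment. At least 1 fragment was found over Dlx1 in 14.8% of gated nuclei (13.7% to 15.9%), Dlx2 in 11.4%, Dlx5 in 16.8% and Dlx6 in 18.4% (17.2% to 19.6%). In glutamatergic-like nuclei, a class that should lack Dlx activity, the shares were 3.65%, 2.77%, 3.43% and 3.03%, although these nuclei were deeper (median 12096 against 9615 fragments). After each nucleus was thinned to 5000 fragments, with 872 gated and 453 glutamatergic-like nuclei left out as shallower, the shares were 8.66%, 5.70%, 8.66% and 9.66% in gated and 1.75%, 1.43%, 1.55% and 1.45% in glutamatergic-like nuclei. Over the whole spans, thinned gated nuclei had a Dlx1-Dlx2 fragment in 19.6% (18.2% to 21.1%) and a Dlx5-Dlx6 fragment in 26.7% (25.2% to 28.4%), against 4.21% and 3.74% of glutamatergic-like nuclei.

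The 2 pairs parted within the GABAergic gate. SPN-like nuclei had the lowest level at Dlx1 and Dlx2 of the 6 gated clusters in either library. With both libraries pooled they had the highest level at Dlx5 and Dlx6, where their intervals overlapped with those of cluster 15 and, at Dlx5, of clusters 9 and 10. In stroke alone, cluster 10 stood above them at Dlx5 (25.7 against 22.8 CPM) and clusters 9 and 15 at Dlx6 (27.0 and 26.8 against 26.3). Dlx1 had 9.29 CPM in the SPN-like nuclei of sham (7.44 to 11.5) and 10.3 in those of stroke (7.52 to 13.7), against 26.4 (24.0 to 28.9) and 24.3 (21.2 to 27.8) in the other gated nuclei. Dlx2 had 8.54 (6.77 to 10.6) and 7.81 (5.44 to 10.9), against 16.2 (14.3 to 18.2) and 18.9 (16.2 to 22.0). In either library the SPN-like intervals at both genes lay below those of the other gated nuclei.

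At the chromosome 6 pair the order was turned. Dlx5 had 25.5 CPM in SPN-like nuclei of sham (22.4 to 29.0) and 22.8 in those of stroke (18.6 to 27.6), against 18.8 (16.7 to 20.9) and 18.2 (15.5 to 21.3). Dlx6 had 32.0 (28.5 to 35.9) and 26.3 (21.8 to 31.5), against 18.6 (16.6 to 20.7) and 21.5 (18.6 to 24.8). The intervals were apart in sham and overlapped in stroke, where the ratios were 1.25 for Dlx5 (0.965 to 1.61) and 1.22 for Dlx6 (0.964 to 1.55).

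Pooled over libraries, SPN-like nuclei stood at 0.374 of the other gated nuclei for Dlx1 (0.308 to 0.451), 0.485 for Dlx2 (0.391 to 0.596), 1.33 for Dlx5 (1.15 to 1.53) and 1.54 for Dlx6 (1.35 to 1.76). Dlx1 and Dlx2 were thus past 2-fold lower, as were 6.85% of the 19478 genes compared. That call was lost for Dlx1 with promoters in place of whole genes (0.570), and for Dlx2 in sham alone (0.527), per promoter fragment (0.506) and with a lower and an upper limit on fragments in peaks (0.503). The per-kb ratio of the Dlx5-Dlx6 span to the Dlx1-Dlx2 span was 3.02 in SPN-like nuclei (2.69 to 3.40), at 3.27 in sham and 2.54 in stroke, above each of the other 5 clusters, which lay between 0.739 in Lhx6-like nuclei (0.640 to 0.852) and 1.19 in cluster 2 (1.03 to 1.36). The gate genes were not lower in SPN-like nuclei: Gad1, Gad2 and Slc32a1 were at 1.27, 1.54 and 1.40 of the other gated nuclei. Against glutamatergic-like nuclei, SPN-like nuclei were 2.50-fold higher at Dlx1 (2.00 to 3.12) and 2.88-fold at Dlx2 (2.24 to 3.68), while they were 7.93-fold higher at Dlx5 and 9.78-fold at Dlx6. The 2.50-fold at Dlx1 was no larger than that of astrocyte-like (2.99), oligodendrocyte-like (2.93) or myeloid-like nuclei (2.80). At Dlx2, SPN-like nuclei had 8.30 CPM, against 12.1 in astrocyte-like, 8.32 in oligodendrocyte-like, 14.4 in OPC-like and 9.60 in myeloid-like nuclei.

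Across the 6 gated clusters, the chromosome 2 pair varied more than the chromosome 6 pair. With both libraries pooled, the Dlx1-Dlx2 span had 27.2 CPM in SPN-like nuclei (24.5 to 30.1), 47.4 in Zic Magel2-like cluster 2 (42.8 to 52.3) and 70.3 in Prox1 Adarb2-like cluster 9 (63.7 to 77.3), and none of these 3 intervals overlapped. Zic Magel2-like cluster 10 at 74.2 (65.9 to 83.2), cluster 15 at 78.4 (66.3 to 92.1) and Lhx6-like cluster 12 at 81.5 (74.2 to 89.3) overlapped with it and with each other. The place of cluster 15 depended on the library, with 109.4 CPM in sham, the highest of the 6, and 53.5 in stroke. The Dlx5-Dlx6 span had 56.5 CPM in cluster 2 (51.4 to 61.8), 60.5 in Lhx6-like (54.3 to 67.3), 61.0 in Prox1 Adarb2-like (54.9 to 67.6), 67.8 in cluster 10 (59.9 to 76.5), 74.7 in cluster 15 (62.9 to 88.1) and 82.6 in SPN-like nuclei (77.9 to 87.5). No pair of neighbours in that order was beyond its intervals. At Dlx1, Lhx6-like nuclei had 34.4 CPM (29.7 to 39.6), an interval that overlapped with those of clusters 9, 10 and 15, and Lhx6 interneurons are known to derive from the medial ganglionic eminence. The pair of Zic Magel2-like clusters also differed at Dlx1, with 30.1 CPM in cluster 10 (24.9 to 36.0) and 16.0 in cluster 2 (13.4 to 18.9).

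**Figure D2:**
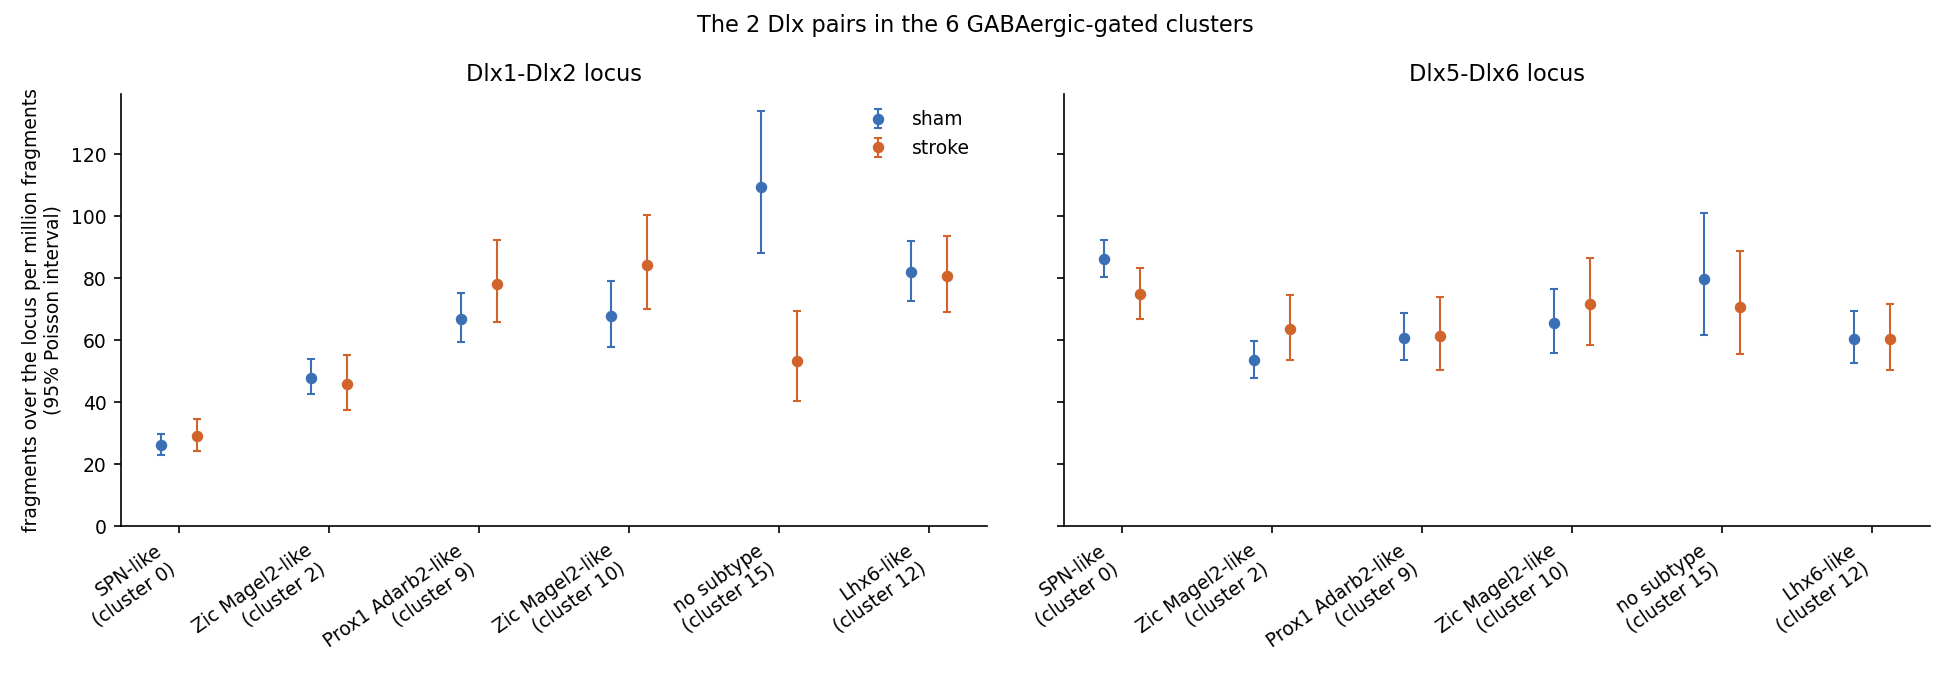
CPM over the Dlx1-Dlx2 span (left) and the Dlx5-Dlx6 span (right) in the 6 GABAergic-gated clusters (x axis, ordered by the pooled Dlx1-Dlx2 level), for sham (blue) and stroke (orange), with bars for exact 95% Poisson intervals. SPN-like nuclei have the lowest values on the left, 26.3 and 29.2, and 86.4 and 74.8 on the right.

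In single nuclei thinned to 5000 fragments, 9.78% of SPN-like nuclei had a Dlx1-Dlx2 fragment (7.99% to 11.8%) and 34.0% a Dlx5-Dlx6 fragment (31.0% to 37.1%). In Lhx6-like nuclei the shares were 30.7% (26.1% to 35.6%) and 24.2% (20% to 28.8%), and in Prox1 Adarb2-like nuclei 26.5% and 25.9%. Fragments at both pairs were found in 31 of 982 thinned SPN-like nuclei (3.16%), in 35 of 384 Lhx6-like nuclei (9.11%) and in 8 of 4064 glutamatergic-like nuclei (0.197%). Among SPN-like nuclei, a Dlx5-Dlx6 fragment was found in 32.3% of those with a Dlx1-Dlx2 fragment and in 34.2% of those without one. In the other 5 gated clusters the share was higher with a Dlx1-Dlx2 fragment, from 28.4% against 22.1% in cluster 10 to 36.4% against 22.1% in Prox1 Adarb2-like nuclei. The shares with a Dlx1-Dlx2 fragment rest on 31 of 96 SPN-like nuclei, 27 of 95 in cluster 10, 48 of 132 in cluster 9 and 14 of 40 in cluster 15. No intervals were computed for these shares, so their differences were not set against counting error.

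Along each locus the cut sites of Tn5 were counted in 500 bp bins, from 20 kb before the span to 20 kb after it. Both ends of a fragment counted as cut sites and could fall in the same region. Intervals on cut sites treat the ends as independent and are therefore too narrow. A bin was called open in GABAergic-gated nuclei where it held at least 20 of their cut sites and had at least 3 times the glutamatergic-like level. This held for 57 of 126 bins at Dlx1-Dlx2 and 79 of 127 bins at Dlx5-Dlx6, and joined bins made 18 and 10 regions. At chromosome 2 the strongest bin, chr2:71529501-71530000 (mm10), overlaps untranslated and coding sequence of Dlx1 and had 12.9 cut sites per 1000000 fragments (CPM) in gated nuclei. It had 4.77 in SPN-like, 17.3 in other gated, 1.35 in glutamatergic-like and 10.9 in astrocyte-like nuclei. At chromosome 6 the strongest bin, chr6:6862501-6863000, lies just before the Dlx6 start, within an intron of the antisense gene Dlx6os1, and had 18.5 in gated nuclei. It had 25.1 in SPN-like, 15 in other gated, 0.807 in glutamatergic-like and 3.28 in astrocyte-like nuclei.

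The difference between SPN-like and other gated nuclei was seen in many bins of each locus. Of open bins with at least 100 cut sites in gated nuclei, all 13 at Dlx1-Dlx2 were lower in SPN-like nuclei (median ratio 0.372, range 0.0970 to 0.538) and 12 were at least 2-fold lower. At Dlx5-Dlx6, 19 of 22 such bins were higher in SPN-like nuclei and 3 were lower (median 1.35, range 0.551 to 7.64). Of the joined regions, 17 of 18 at Dlx1-Dlx2 had an interval below 1 and none above it, and 8 of 10 at Dlx5-Dlx6 had an interval above 1 and none below it. Bins and regions were picked on cut sites summed over both groups, so either group alone could bring one in. At chr2:71517501-71518000, 115 of 121 cut sites came from other gated nuclei, and at chr6:6855501-6856000, 181 of 225 came from SPN-like nuclei. Open bins and regions elsewhere in the genome were not compared between these groups, so no background share stands beside these counts. The bins divide fragments that also gave the gene and span ratios, so the counts largely restate those ratios and are a description. The antisense gene Dlx1as, which overlaps Dlx1, had 18.1 CPM in SPN-like and 52.0 in other gated nuclei, and Dlx6os1, which overlaps Dlx6, had 98.1 and 70.4. Fragments carry no strand, so the antisense genes cannot be told apart from Dlx1 and Dlx6 where they overlap.

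**Figure D3:**
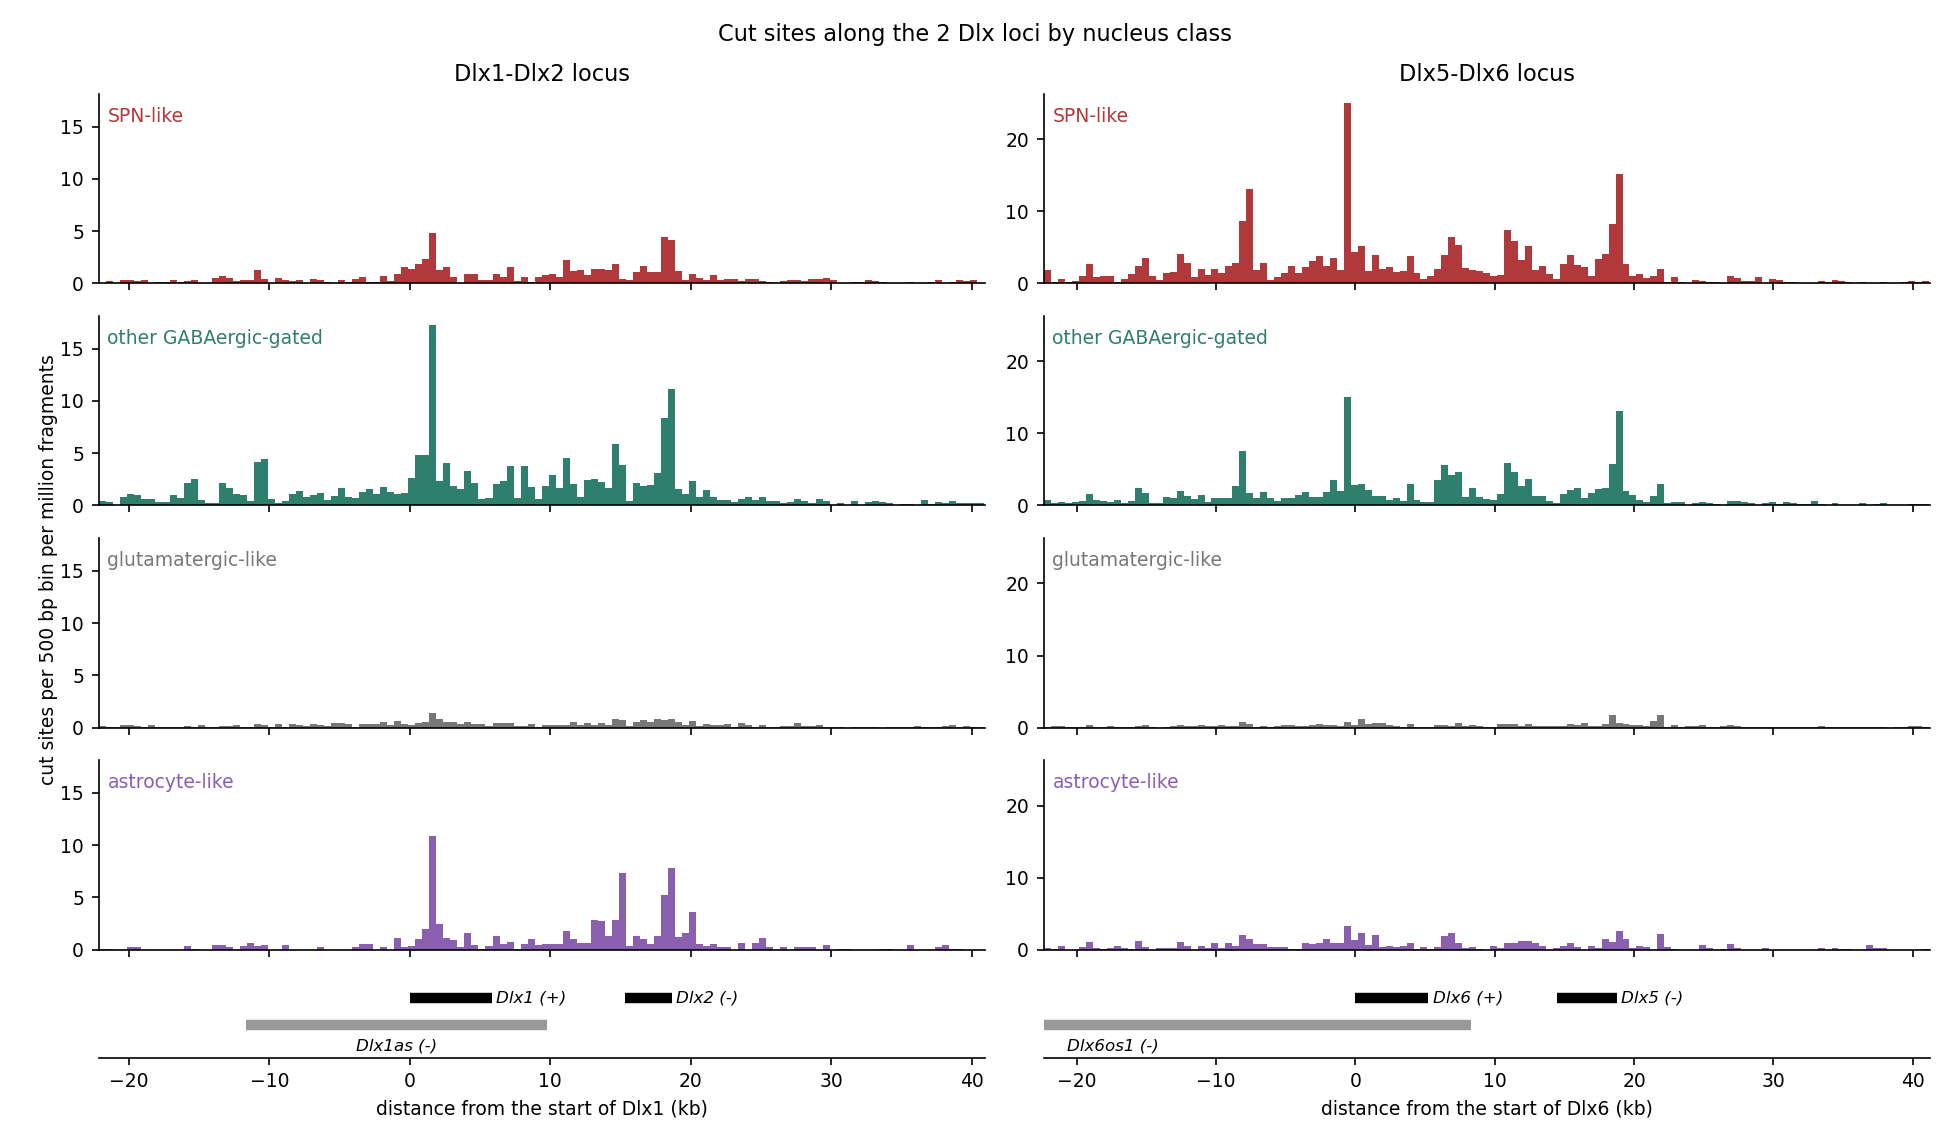
Cut sites per 500 bp bin in CPM (y axis, one scale per locus) against the distance from the start of Dlx1 (left) or Dlx6 (right) in kb, in SPN-like, other GABAergic-gated, glutamatergic-like and astrocyte-like nuclei, with gene bodies drawn below. The tallest bins reach 17.3 at Dlx1-Dlx2 in other gated nuclei and 25.1 at Dlx5-Dlx6 in SPN-like nuclei.

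Stretches of 300 bases outside untranslated and coding sequence are shown for the bins on which these contrasts turn, as the GRCm38.p6 (mm10) reference reads them on the plus strand. They are the bin furthest from a ratio of 1 at each locus, the strongest bin before Dlx6 and the strongest bin between Dlx5 and Dlx6. The 250 bases before the Dlx2 start, from the RefSeq promoter table and on the minus strand, stand for the promoter of the chromosome 2 pair. Capitals mark TAATTA, a homeodomain core motif that reads the same on both strands.

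Dlx1 -10.4 kb, chr2:71517551-71517850, intron of Dlx1as and of Metap1d: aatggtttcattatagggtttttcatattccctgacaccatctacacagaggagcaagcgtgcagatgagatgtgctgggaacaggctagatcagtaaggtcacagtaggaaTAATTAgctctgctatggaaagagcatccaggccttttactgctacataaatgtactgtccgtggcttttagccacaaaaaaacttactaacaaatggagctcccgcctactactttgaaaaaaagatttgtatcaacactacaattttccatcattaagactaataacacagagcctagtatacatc

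Dlx6 -7.6 kb, chr6:6855571-6855870, intron of Dlx6os1, and exon of Gm44094, a gene model still to be checked by experiment: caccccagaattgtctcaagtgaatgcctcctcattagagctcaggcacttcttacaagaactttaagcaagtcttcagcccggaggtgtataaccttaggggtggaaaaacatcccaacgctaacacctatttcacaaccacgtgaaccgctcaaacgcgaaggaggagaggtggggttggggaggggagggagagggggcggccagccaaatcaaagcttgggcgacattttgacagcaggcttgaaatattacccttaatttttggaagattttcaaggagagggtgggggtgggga

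Dlx6 -0.5 kb, chr6:6862731-6863030, intron of Dlx6os1: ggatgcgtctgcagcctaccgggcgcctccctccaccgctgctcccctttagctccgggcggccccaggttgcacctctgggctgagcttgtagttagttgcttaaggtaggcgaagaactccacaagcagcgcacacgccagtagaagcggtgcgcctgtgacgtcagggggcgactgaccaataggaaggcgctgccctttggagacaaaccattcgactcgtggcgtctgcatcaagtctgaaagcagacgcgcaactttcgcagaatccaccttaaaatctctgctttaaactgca

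Between Dlx5 and Dlx6, chr6:6874221-6874520, intergenic, 7.7 kb past the Dlx5 start and 11 kb past the Dlx6 start: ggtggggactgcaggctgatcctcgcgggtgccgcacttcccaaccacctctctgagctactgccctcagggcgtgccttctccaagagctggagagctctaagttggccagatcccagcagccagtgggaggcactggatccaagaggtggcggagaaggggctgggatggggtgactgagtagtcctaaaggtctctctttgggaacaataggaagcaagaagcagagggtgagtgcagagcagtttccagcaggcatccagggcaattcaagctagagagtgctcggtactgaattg

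Dlx2 promoter, chr2:71546755-71547004: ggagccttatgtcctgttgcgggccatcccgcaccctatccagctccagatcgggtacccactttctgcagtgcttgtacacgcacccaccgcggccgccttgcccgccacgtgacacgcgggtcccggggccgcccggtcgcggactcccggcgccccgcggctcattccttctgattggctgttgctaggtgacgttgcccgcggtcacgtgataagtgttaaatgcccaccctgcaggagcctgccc

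Of these 5 stretches, TAATTA occurred 1 time in the one at Dlx1 -10.4 kb and in none of the rest. Of all 6 stretches of 300 bases read at the loci, of which some are not shown, 2 held it (33.3%). The second was at chr2:71517041-71517340, in an intron of Dlx1as and an exon of Metap1d. Its bin had the most cut sites of open bins not between Dlx1 and Dlx2 and free of untranslated and coding sequence. Both stretches lie in the same open region, chr2:71517001-71518000. Their GC content was 39.7% and 42.3%, against 50.7% to 58.0% in the other 300-base stretches read. The shares carry no interval and were not matched for base composition. TAATTA occurred in 5.29% of 32851 promoters of 300 bases, and in 9.52% and 10.4% of the 300-base stretches that tile the Dlx1-Dlx2 and Dlx5-Dlx6 loci.

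The stretch at Dlx6 -7.6 kb was open chiefly in SPN-like nuclei. It had 9.46 CPM of cut sites in SPN-like nuclei (7.91 to 11.2, from 131 cut sites) and 1.40 in other gated nuclei (0.980 to 1.94, from 36), a ratio of 6.76 (4.65 to 10.1). The ratio was 6.02 in sham (3.97 to 9.37) and 10.2 in stroke (4.19 to 29.9). Among the other gated clusters it had 0.890 in Lhx6-like, 0.994 in Prox1 Adarb2-like, 1.27 and 1.69 in Zic Magel2-like nuclei and 3.18 in cluster 15, and in glutamatergic-like nuclei 0.305. The neighbouring bin chr6:6855001-6855500 was open in both, with 8.59 in SPN-like and 7.54 in other gated nuclei. In SPN-like nuclei the stretch had 10.7 in sham and 6.92 in stroke, a stroke over sham ratio of 0.648 (0.419 to 0.978). This interval rests on cut sites and is too narrow, and its upper end is near 1.

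The stretch at Dlx1 -10.4 kb went the other way. It had 0.433 CPM of cut sites in SPN-like nuclei (0.159 to 0.943, from 6) and 3.26 in other gated nuclei (2.60 to 4.04, from 84), a ratio of 0.133 (0.0474 to 0.301). The 6 cut sites were all in sham, and the stroke SPN-like nuclei had 0, with an upper bound of 0.823. Glutamatergic-like and astrocyte-like nuclei had 0.197 and 0.328. The stretch at Dlx6 -0.5 kb was open in every gated cluster, from 10.7 in Lhx6-like (8.15 to 13.7) to 24.6 in SPN-like nuclei (22.1 to 27.4), and was at 0.646 in glutamatergic-like nuclei (0.452 to 0.894). The stretch between Dlx5 and Dlx6 had 5.85 in SPN-like (4.65 to 7.27) and 5.05 in other gated nuclei (4.22 to 6), a ratio whose interval held 1, and 0.395 in glutamatergic-like nuclei (0.247 to 0.598). Its ratio was above 1 in sham, 1.58 (1.10 to 2.25), and 0.635 in stroke (0.357 to 1.08). As the bins were picked for their cut sites in gated nuclei, for their level over glutamatergic-like nuclei or as extremes between gated clusters, these values are a description.

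**Figure D4:**
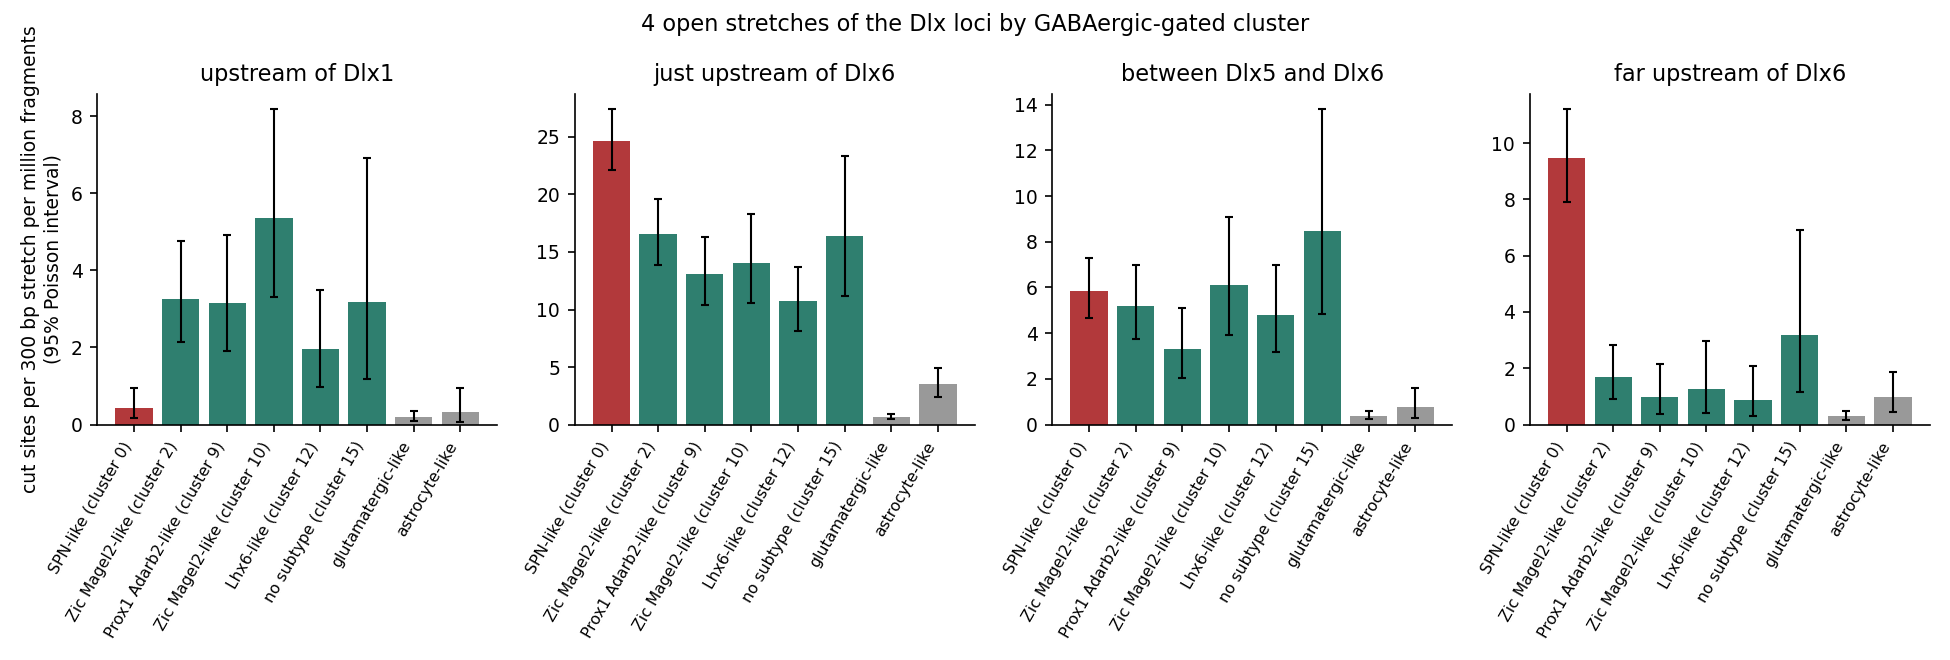
Cut sites per 300 bp stretch in CPM (y axis) at Dlx1 -10.4 kb, Dlx6 -0.5 kb, between Dlx5 and Dlx6, and at Dlx6 -7.6 kb, in the 6 GABAergic-gated clusters (SPN-like in red) and in glutamatergic-like and astrocyte-like nuclei (grey), both libraries pooled, with exact 95% Poisson intervals. SPN-like nuclei are at 0.433 in the first panel and 9.46 in the last.

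Astrocyte-like nuclei shared some of the chromosome 2 bins and not others. At chr2:71543001-71543500, which holds the 3′ end of Dlx2, they had 7.33 CPM of cut sites against 0.433 in SPN-like, 3.89 in other gated and 0.682 in glutamatergic-like nuclei. At chr2:71517501-71518000 upstream of Dlx1 they had 0.438, against 4.47 in other gated nuclei.

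Between the conditions, the Dlx genes of GABAergic-gated nuclei were close to each other. Stroke over sham was 0.967 for Dlx1 (0.830 to 1.12), 1.13 for Dlx2 (0.943 to 1.34), 0.934 for Dlx5 (0.803 to 1.08) and 0.990 for Dlx6 (0.861 to 1.14). None of the 4 was past 1.5-fold in either direction, against 6.1% of 19478 genes past it upwards and 1.65% downwards. The spans gave 1.07 for Dlx1-Dlx2 (0.975 to 1.17) and 0.981 for Dlx5-Dlx6 (0.905 to 1.06), and their intervals reached no further than 0.905 and 1.17. The values depended on the gate. With the gate on each nucleus, Dlx1, Dlx2, Dlx5 and Dlx6 were at 1.01, 0.888, 0.686 and 0.814. With a gate fold of 2 they were at 0.952, 0.941, 0.871 and 0.846. Gad1 and Gad2 were at 1.09 (1.02 to 1.16) and 1.19 (1.11 to 1.28) in the same nuclei.

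Cluster by cluster, 4 of 6 clusters had intervals that held 1 at both spans. SPN-like nuclei were at 0.866 for Dlx5-Dlx6 (0.760 to 0.985) and 1.11 for Dlx1-Dlx2 (0.894 to 1.38). Cluster 15 was at 0.490 for Dlx1-Dlx2, with 109.4 CPM in sham (88.2 to 134.1, from 92 fragments) and 53.5 in stroke (40.4 to 69.5, from 56), and at 0.888 for Dlx5-Dlx6 (0.630 to 1.26). Gad1 was also lower in stroke in that cluster, at 0.559 (0.441 to 0.706), while Gad2 was at 1.15 (0.819 to 1.63). Cluster 15 was 1.94% of kept nuclei in sham and 4.59% in stroke, the only gated cluster with the higher share in stroke. The part of this shift in its ratios was not tested. In Zic Magel2-like cluster 10, Dlx2 had 11.5 CPM in sham (28 fragments) and 29.7 in stroke (44 fragments), a ratio of 2.59 (1.58 to 4.32), while its partner Dlx1 was at 0.878 (0.586 to 1.30). Of the joined open regions, stroke over sham had an interval above 1 in 4 of 18 at Dlx1-Dlx2 and 3 of 10 at Dlx5-Dlx6, and below 1 in 1 of each. Open regions elsewhere in the genome were not counted in this way, so no background share stands beside these counts. Some regions above 1 were small, with 25 cut sites at chr2:71524001-71524500, 27 at chr6:6890501-6891000 and 21 at chr6:6893001-6893500. The region with most cut sites among those above 1 was chr2:71533501-71543500, from the end of Dlx1 to that of Dlx2, with a ratio of 1.15 (1.04 to 1.28) from 1505 cut sites. The one with most among those below 1 was at chr6:6849501-6853500 in Dlx6os1, with a ratio of 0.645 (0.517 to 0.799) from 463 cut sites. As both ends of a fragment count as cut sites, these region intervals are too narrow. Those that end near 1, such as 1.04 to 1.28, might hold 1 with each fragment counted once, which was not computed.

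In all kept nuclei together the pairs moved apart, with stroke over sham at 1.11 for Dlx1-Dlx2 (1.03 to 1.18) and 0.849 for Dlx5-Dlx6 (0.794 to 0.907). With all called barcodes, single genes of both pairs were below 1, Dlx1 at 0.785 and Dlx2 at 0.811, against 1 and 1.08 in kept nuclei. The mix of nuclei differed between the libraries. Gated nuclei were 35.6% in sham and 28.6% in stroke, SPN-like nuclei 10.3% and 7.56%, and cluster 15 nuclei 1.94% and 4.59%. Astrocyte-like, oligodendrocyte-like and myeloid-like nuclei were 4.21%, 3.40% and 0.264% in sham and 8.49%, 8.45% and 5.56% in stroke. Outside the gate, the Dlx1-Dlx2 span had 12.9 CPM in sham (11.9 to 14.0) and 21 in stroke (19.6 to 22.4), a ratio of 1.63 (1.46 to 1.81), and the Dlx5-Dlx6 span was also higher in stroke, at 1.2 (1.06 to 1.35). Astrocyte-like nuclei went the other way at Dlx5-Dlx6, at 0.429 (0.307 to 0.593), and were at 1.06 for Dlx1-Dlx2 (0.849 to 1.32). OPC-like and myeloid-like nuclei were at 1.98 (0.834 to 4.81) and 0.760 (0.438 to 1.43) for Dlx5-Dlx6. At the Dlx1-Dlx2 span, glutamatergic-like nuclei were 1.38-fold higher in stroke (1.16 to 1.63), at 8.87 and 12.2 CPM, and oligodendrocyte-like nuclei 2.27-fold higher (1.42 to 3.79), at 16.1 and 36.7 CPM. At the Dlx5-Dlx6 span the ratios of these classes were 1.18 (0.981 to 1.42) and 1.28 (0.747 to 2.26), and both intervals held 1. Gad2 was higher in stroke in the same classes, at 1.5 (1.23 to 1.81) and 2.37 (1.34 to 4.45), and Gad1 was at 1.28 (1.14 to 1.45) and 1.29 (0.862 to 1.96). Their part in the Dlx difference was not tested. Of the 7 glutamatergic-like clusters, cluster 5 alone had an interval that excluded 1 at Dlx1-Dlx2 (2.62, from 16 stroke and 59 sham fragments), and clusters 5 and 13 did at Dlx5-Dlx6 (2.52, 1.22 to 4.84, and 4.33, 1.89 to 11.5, from 35 stroke and 7 sham fragments). Clusters 5 and 14 held 613 and 345 of the 2920 sham nuclei but 76 and 34 of the 1597 stroke nuclei.

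**Figure D5:**
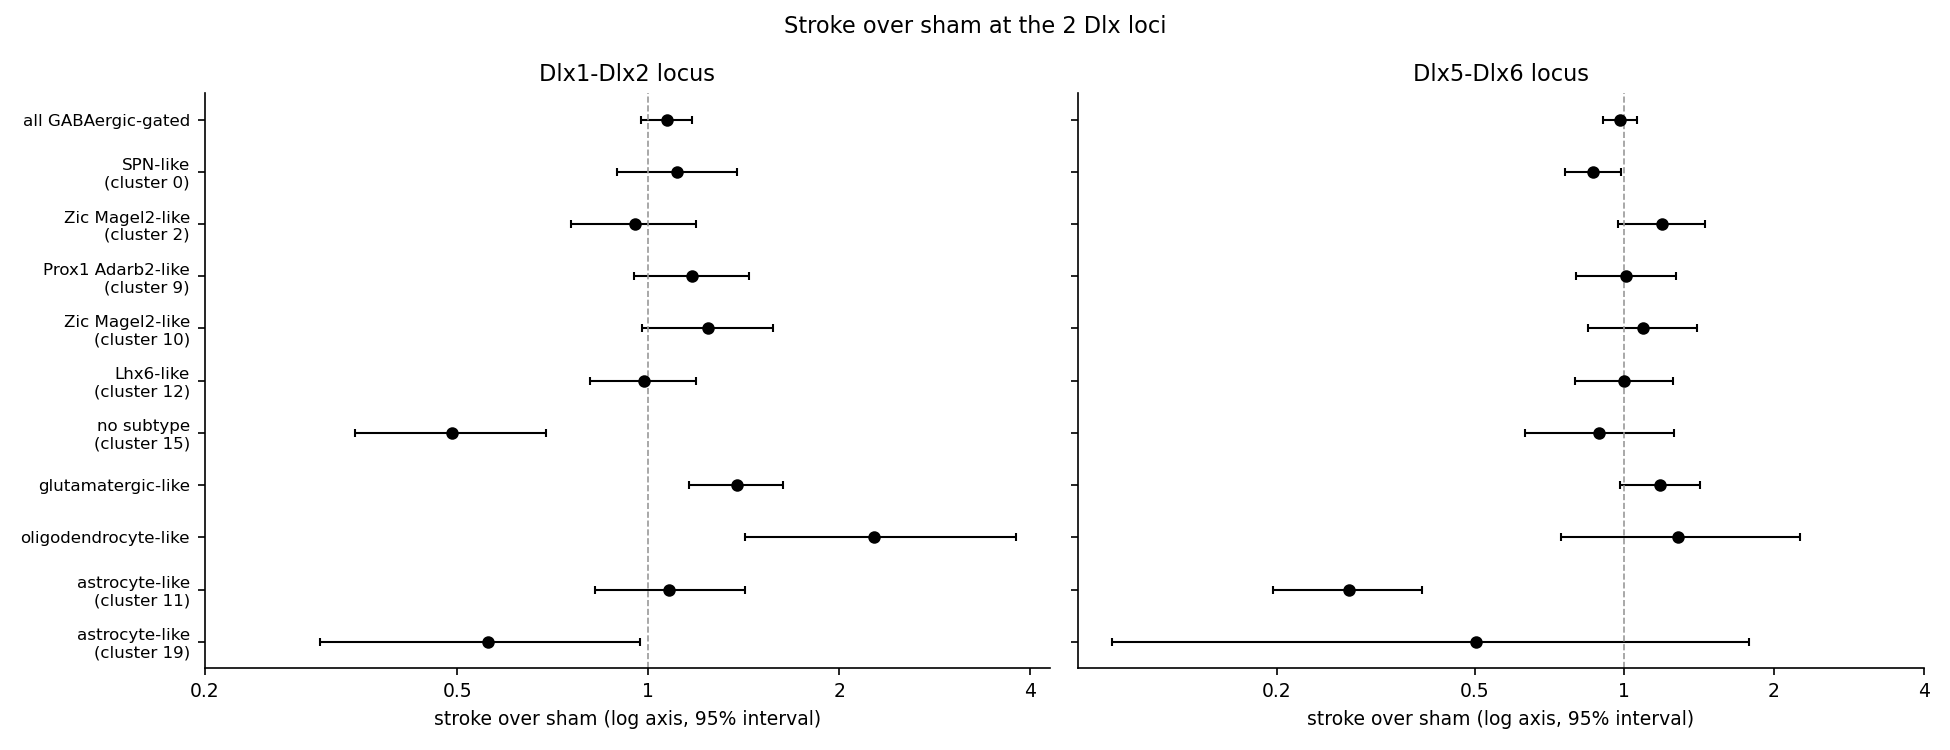
Ratio of stroke to sham CPM (log axis, each panel with its own range) over the Dlx1-Dlx2 span (left) and the Dlx5-Dlx6 span (right), for all GABAergic-gated nuclei, the 6 gated clusters and 4 other groups, with exact 95% intervals. All gated nuclei lie at 1.07 and 0.981, cluster 15 at 0.490 on the left and astrocyte-like cluster 11 at 0.279 on the right.

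A list of 23 other genes of GABAergic neuron development, the 3 gate genes left out, was read beside the Dlx genes. In gated against all other nuclei, 7 of the 23 were at least 2-fold higher, with a list median of 1.32 against 1.04 for all genes, of which 0.849% were past that fold. None of the 5 regulators listed as acting above the Dlx genes was among them: Gsx2 was at 1.69 (1.30 to 2.21), Nkx2-1, which specifies the medial ganglionic eminence, at 1.41 (1.13 to 1.75), Meis2 at 1.32 and Gsx1 at 0.576. Of 14 transcription factors that act below or beside them, 5 were, among them Six3 at 2.75 (2.51 to 3.03), Isl1 at 2.64 (2.29 to 3.04), Lhx6 at 2.22 (2.01 to 2.46) and Sp9 at 2.02 (1.85 to 2.21). Of 4 effectors, 2 were, among them the neuregulin receptor gene Erbb4 at 2.23. The 4 Dlx genes, with a median of 4.16, stood above each of these 23 genes by their ratios alone. The lowest of the 4, Dlx2 at 2.85 (2.51 to 3.24), had an interval that overlapped with those of Six3 and Isl1, among others. Dlx5 and Dlx6 lay between Gad1 at 4.13 and Slc32a1 at 5.82, and Gad2 was at 7.08. As these 3 genes set the gate, their ratios were high by its construction and are given as a description only.

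In SPN-like against other gated nuclei, the listed factors lay on both sides of 1, as the Dlx pairs did. Meis2 was at 3.50 (3.32 to 3.68), Six3 at 3.07 (2.70 to 3.50) and Isl1, a factor of striatal direct-pathway neurons, at 2.78 (2.28 to 3.39). Zeb2 was at 0.230 (0.204 to 0.260), Lhx6 at 0.258 (0.206 to 0.320), Maf at 0.384 (0.311 to 0.471) and Prox1 at 0.418 (0.344 to 0.505). Between stroke and sham in gated nuclei, 1 of the 23 was at least 1.5-fold higher and none at least 1.5-fold lower, near the 6.1% and 1.65% of all genes, with a list median of 1.12 against 0.969. The one was Gsx1, with 34 fragments in stroke and 25 in sham and a ratio of 2.68 (1.56 to 4.69).

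Across the 21 clusters, the genes most like each pair were found by the correlation of log2(CPM + 5) with the level over the pair's span, among genes with at least 200 fragments. Genes on the same chromosome within 1 Mb of the span were left out. Gad1 lies within that distance of the Dlx1-Dlx2 span, so it could enter the list for Dlx5-Dlx6 only. For Dlx5-Dlx6 they were Gad2 (r = 0.97), Gad1 (0.95), Rerg (0.94), Slc32a1 (0.92) and Sp9 (0.92). For Dlx1-Dlx2 they were Dock11 (0.92), Th, the tyrosine hydroxylase gene (0.91), Aaed1 (0.89), Gm45213 (0.87) and Kcnip1 (0.87). Th was among the 10 leading genes of gated clusters 10 and 15. The 2 pairs correlated with each other at 0.84. The clusters share libraries and differ in depth, and these values are a description.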

How the data were processed

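Cell Ranger ATAC 2.1.0 was used by the authors to align each library to mm10 (reference built with Cell Ranger ARC 2.0.0), and they deposited fragment lists and, per barcode, fragment counts without normalization. Fragment ends are Tn5 cut sites, already shifted by that pipeline. Kept nuclei held 73478025 sham and 52794445 stroke fragments.

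Fragments were counted over GENCODE M21 genes. The 50000 tiles of 5 kb with fragments in the largest numbers of nuclei (458 or more) were transformed by TF-IDF and SVD (components 2 to 10), and 20 nearest neighbours were clustered with leidenalg 0.10.2 at resolution 1.2, in Python 3.11.15 with scipy 1.17.1. A class needed 3 or more markers at 1.5-fold, and a cluster whose median depth was under 1/3 of its library's was named only with one of them among its 10 leading genes, by a rule set after scores had been seen. The members, gene lists and markers were chosen with earlier results of these data known. Named genes are the 4 Dlx genes, other Dlx and antisense genes, the developmental list, and the 5 genes most alike in pattern to each pair. Some genes of the developmental list are counted in it but not reported here by name. Ratios carry exact 95% intervals conditional on the summed counts. Fold calls were tested on simulated data. Alternatives were other gates, filters, resolutions, components, windows and scalings. Called stroke and sham barcodes under 20% in peaks entered an alternative only.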

Additional observations from a re-analysis of the deposited data

Results flagged for a closer look

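Stroke over sham at each span was scanned in every gated and astrocyte-like cluster and in the glutamatergic-like, oligodendrocyte-like, OPC-like and myeloid-like classes. Groups were listed only where their interval excluded 1 and where both sides of 1 occurred at the span. At the Dlx1-Dlx2 span, stroke over sham lay on opposite sides of 1 in the listed groups, and the intervals of the remaining groups held 1. It was above 1 in glutamatergic-like nuclei (1.38) and oligodendrocyte-like nuclei (2.27), and below 1 in the GABAergic-gated cluster 15 (0.490) and in astrocyte-like cluster 19 (0.559, from 16 stroke and 72 sham fragments). In the same order Gad2 was at 1.5, 2.37, 1.15 and 1.06, and Gad1 at 1.28, 1.29, 0.559 and 0.559. Of the 7 glutamatergic-like clusters, cluster 5 alone had an interval that excluded 1 at this span, and the libraries drew their glutamatergic-like nuclei from these clusters in different shares. With 1 library per condition the difference between these groups was not tested. The median depth was 3755 fragments in cluster 15 and 4328 in oligodendrocyte-like nuclei, against 12096 in glutamatergic-like nuclei. Cluster 15 was 1.94% of kept nuclei in sham and 4.59% in stroke.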

How the results depend on the processing

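No paired analysis was possible because there was 1 library for each condition. No alternative turned the direction of a Dlx ratio between classes or between SPN-like and other gated nuclei. Gated over other nuclei (44 alternatives for 4 genes) ranged from 2.02 to 4.22 for Dlx1, 1.71 to 3.19 for Dlx2, 2.45 to 6.07 for Dlx5 and 2.83 to 7.80 for Dlx6. For Dlx1, Dlx2, Dlx5 and Dlx6 in order it was 2.02, 1.71, 3.42 and 3.93 with a gate fold of 2, which left 1831 nuclei in the gate and put the Zic Magel2-like and Prox1 Adarb2-like clusters among the others, and 2.62, 2.13, 2.45 and 2.83 with the gate on each nucleus. It was 6.07 for Dlx5 and 7.80 for Dlx6 without the deepest 5% of nuclei, 7.70 for Dlx6 with promoters, and, added after the data were seen, 4.22 and 5.87 (Dlx1, Dlx5) in sham alone and 2.71 and 4.02 in stroke alone. SPN-like over other gated nuclei stayed within 0.352 to 0.570, 0.412 to 0.527, 1.22 to 1.38 and 1.22 to 1.72, in clusterings at other resolutions, components and filters as well, which were added after the data were seen; Dlx2 lost the 2-fold call in sham alone (0.527), per promoter fragment (0.506) and with a lower and an upper limit on fragments in peaks (0.503), and the ratio left its interval for Dlx1 with promoters (0.570) and Dlx6 in stroke alone (1.22). Stroke over sham in gated nuclei moved for Dlx2 (0.941, from above to below 1) and Dlx6 (0.846) with a gate fold of 2, and for Dlx2 (0.888), Dlx5 (0.686) and Dlx6 (0.814) with the gate on each nucleus; the cause was not tested. In all called barcodes the stroke over sham ratios of the libraries were 0.785, 0.811, 0.719 and 0.667, which put Dlx2 below 1 (1.08 in kept nuclei). Thinning lowered the shares of nuclei to 19.6% and 26.7%, by its construction. With a minimum of 5 fragments, 1990 genes were past 1.5-fold upwards and 521 downwards. Depth limits small clusters: cluster 15 and OPC-like nuclei rest on 32 to 55 and 6 to 20 fragments per Dlx gene, and astrocyte-like cluster 19 on 4 at Dlx5 and 5 at Dlx6.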
